A study of Sus scrofa with 30 samples.

Results

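The erythroid miRNA loci mir-451, mir-144 and mir-486 were followed in small RNA of the porcine endometrium. Their members are the 16 sequences in the study's list of annotated miRNAs whose name carries 1 of these roots, whatever the arm or copy, and the list holds 857 others. Each was counted by exact match in every library. There were 9 forms of miR-451, 4 of miR-144-5p, 1 of miR-144-3p and 2 of miR-486. The choice used names only, although the list itself was limited by the study to sequences with enough reads in at least 1 group.

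Endometrium was collected from 30 Hampshire x Duroc gilts of 7 to 8 months from 1 herd, with 1 library per animal, so replicates within a group are separate animals. Pregnant (P) gilts were inseminated and carried conceptuses, and cyclic (C) gilts were sampled on the same days (D) of the estrous cycle. The groups were PD12 (n = 5), PD16 (n = 5), PD20 (n = 6), CD12 (n = 4), CD16 (n = 5) and CD20 (n = 5). The PD12 and PD16 horns had been flushed of conceptuses, whereas PD20 samples are endometrium of implantation sites without the embryo and trophoblast. The tissue was whole endometrium and not sorted cells. A library held between 2029729 and 6402731 deposited reads (median 3111079), and the 16 sequences took 112324 reads in all, between 0.0311% and 0.410% of the reads on the annotated list in a library.

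miR-144 and miR-451 are cut from neighbouring hairpins of 1 erythroid transcript under the control of GATA1, and both accumulate in maturing red cells. miR-451 is unusual in that its short hairpin skips DICER1: AGO2 cuts the hairpin, and the 3′ end of the product is then trimmed base by base by exonucleases such as PARN. miR-486, from an intron of the red cell ankyrin gene ANK1, is abundant in red cells and is also made in striated muscle, and red cells keep these miRNAs after they have lost their nucleus. Among the RefSeq genes of the Sscrofa11.1 assembly, MIR451 and MIR144 are each other's nearest miRNA gene within the span of ERAL1, and MIR486-1 lies within the span of ANK1.

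The member sequences below, taken from the study's list, show how few 5′ starts the 16 forms use. Capitals mark the seed, bases 2 to 8, by which a miRNA pairs with its targets.
miR-451, 21 nt: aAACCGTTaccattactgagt
miR-451, canonical 22 nt: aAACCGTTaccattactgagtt
miR-144-5p, 23 nt: gGATATCAtcatatactgtaagt
miR-144-5p, 21 nt: tGGGATATcatcatatactgt
miR-144-3p, canonical 19 nt: tACAGTATagatgatgtac
The 9 forms of miR-451 share the seed AACCGTT and differ at the 3′ end alone. Of the 4 forms of miR-144-5p, 3 share GATATCA, and the 21 nt form begins 2 bases upstream and reads GGGATAT. The miR-144-3p form has the seed ACAGTAT, and both forms of miR-486, the canonical one of 22 nt and 1 of 21 nt, have the seed CCTGTAC. Thus 15 of the 16 forms use 4 starts, 1 for each arm, and 1 form uses another.

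To see whether the 16 forms stand for their loci, all deposited reads that hold a 14-base core of an arm were summed. miR-451 had 116287 such reads, of which 86.0% were members and 99.75% began at the same base. miR-144-5p had 12412 reads (84.8% members) and miR-144-3p 1098 (69.7% members), so the 5p arm was read far more than the 3p arm, whose annotated form is the canonical one. miR-486 had 8804 reads, but 11.8% of them were members. Its most abundant read was 1 nt longer than the canonical form and ended in A (5786 reads, 65.7% of the locus), and the next, of the same length, ended in T (1157 reads, 13.1%). Whether either last base is encoded in the hairpin was not tested. Neither is on the annotated list, which the study limited to sequences identical to a reference miRNA or hairpin. Levels of miR-486 are therefore given for the annotated forms and for all its reads.

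A pair of libraries stood apart at the 3′ end. In 28 libraries between 8.38% and 19.6% of reads that match 21 nt miR-451 but for the last base or in full ended in C in place of T, and the median of other annotated sequences that end in T was between 9.38% and 19.4% in the same libraries. In PD20 replicate 3 the share was 0.120% and in CD16 replicate 3 it was 0.163%, with a median of 0 for the other sequences in both. The difference thus touched the whole library and not miR-451 alone. No count of calls for the 16 forms changed when either library was left out of the 9 comparisons.

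The lengths of miR-451 reads show where its 3′ end falls. No hairpin sequence was used here, so each length is the most frequent read that extends the one before it by a base from the common start. The study named the forms of 23 to 26 nt after the mir-451 hairpin, and its list holds only sequences identical to a reference. Whether the bases past 26 nt are encoded in the hairpin was not tested. Among the 100334 reads of this series, 62.7% were 21 nt long and 11.1% had the canonical 22 nt. Reads of 20 nt made up 13.8%, and those of 19 nt 3.07%. The 21 nt read was the most abundant length in 30 of 30 libraries. Beyond the canonical end there were 4526 reads of 23 nt, 512 of 24 nt and 727 of 25 nt, but 2956 of 26 nt. The 26 nt read outnumbered the 25 nt read in 30 of 30 libraries, so the second peak belongs to every animal. Past it came 69 reads with 27 nt, 62 with 28 nt, 22 with 29 nt and a single one with 30 nt (1 read), although lengths up to 31 nt were deposited. The canonical read and 3 longer ones are shown, with the bases past the canonical end in capitals.
miR-451, 22 nt: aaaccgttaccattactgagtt
miR-451, 23 nt: aaaccgttaccattactgagttT
miR-451, 26 nt: aaaccgttaccattactgagttTAGT
miR-451, 30 nt (1 read): aaaccgttaccattactgagttTAGTAATG
The member list holds the lengths 17 and 19 to 26, and the lengths 18 and 27 to 30 are not in it.

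**Figure D1:**
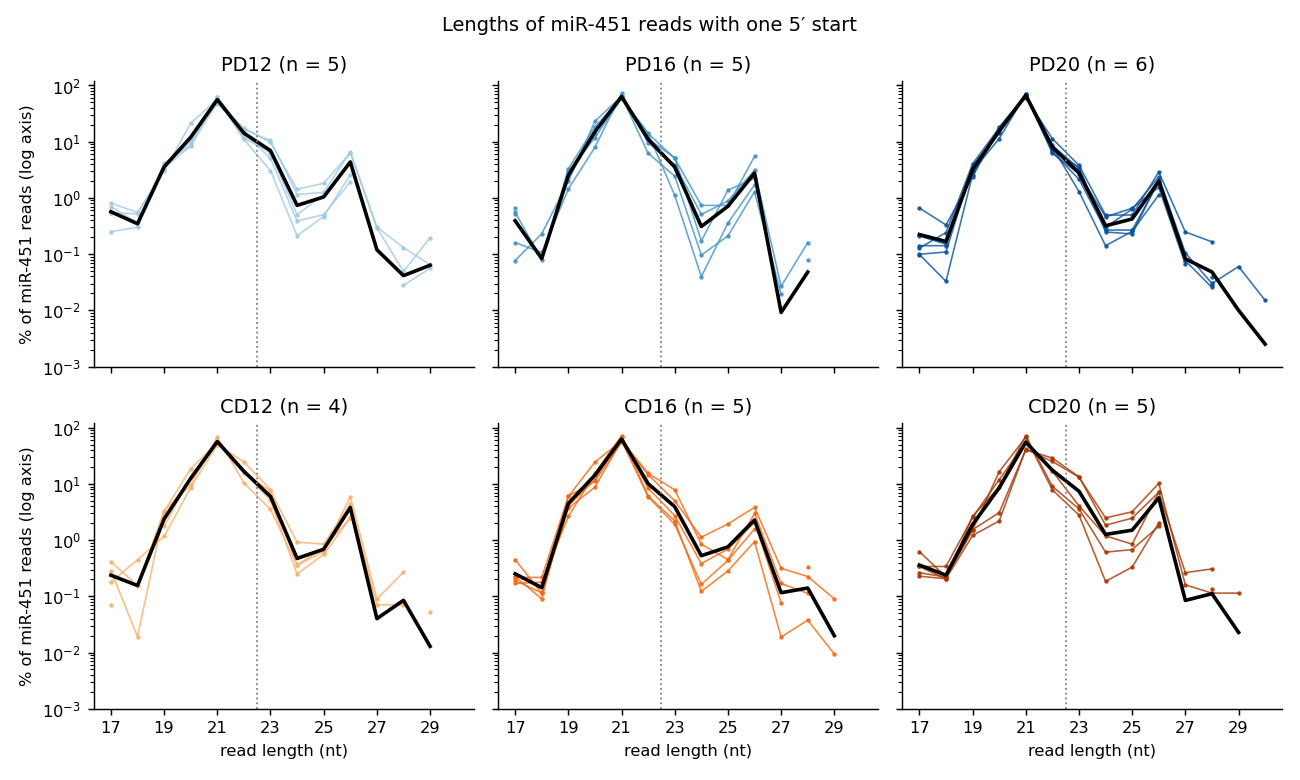
Share of miR-451 reads (%, log axis) at each read length (nt) for the reads with the common 5′ start, in a panel for each group. Thin lines are libraries, the black line is the group mean, points at 0 are left out, and the dotted line marks the canonical end of 22 nt. Every library peaks at 21 nt and has a second peak at 26 nt.

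The reach of miR-451 reads was set beside that of other miRNAs, in which no second peak was looked for. The shares given for miR-451 here come from a different set of reads than the 100334 above and differ slightly from theirs. In 75 canonical porcine miRNAs with at least 3000 reads, reads 4 or more bases past the canonical end made up a median of 0.0417%, against 3.14% for miR-451, and 1 of the 75 had a larger share. The SD of read length was 1.23 nt for miR-451 and a median of 0.765 nt for the others, with 3 of 75 above miR-451. Reads that pass the canonical end by any number of bases were less frequent for miR-451 (8.58%) than for the median of the others (16.1%), and 52 of 75 lay above it. Reads 2 or more bases past the end were more frequent, at 4.31% against a median of 2.49%, with 27 of 75 above miR-451. The place of miR-451 among the others thus depended on how far past the end reads were counted. For miR-486 the share of reads past the canonical end was 86.8%, with 4 of 75 others above it, and 0.0586% passed it by 4 or more bases. These are descriptions of the pooled libraries, with no test.

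The share of miR-451 reads of 23 nt or more, here called the tail share, varied 10.3-fold between animals, from 2.85% in PD20 replicate 3 to 29.5% in CD20 replicate 1. It was 19.8, 7.95, 6.32, 12.3 and 20.1% in PD12 and 8.63, 4.05, 8.92, 3.30 and 12.0% in PD16. In PD20 it ran from 2.85 to 8.10% with a median of 5.76%. PD20 had the narrowest range in percentage points, though not as a fold, and 3 of 5 PD12 animals lay above all its values. In cyclic gilts the tail share was 7.13, 8.37, 15.2 and 13.7% in CD12 and 3.63, 12.4, 12.5, 5.95 and 4.41% in CD16. In CD20 it was 29.5, 25.4, 6.80, 5.35 and 13.3%. CD20 was the most divided group, with replicates 1 and 2 far above the other 3 libraries, of which 2 lay within the range of PD20.

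As means ± SD, the tail share was 13.3% ± 6.43 (n = 5) in PD12, 7.38% ± 3.64 (n = 5) in PD16 and 5.67% ± 1.81 (n = 6) in PD20, and 11.1% ± 3.93 (n = 4), 7.79% ± 4.36 (n = 5) and 16.1% ± 10.9 (n = 5) in CD12, CD16 and CD20. The exact two-sided permutation test on the logit scale gave p = 0.0152 for PD20 vs PD12 and p = 0.0346 for PD20 vs CD20, and p-values between 0.119 and 0.929 for the other 7 comparisons. After Benjamini-Hochberg adjustment over the 9 comparisons the exact test gave 0.136 for PD20 vs PD12 and 0.156 for PD20 vs CD20, so none passed the threshold. The smallest p that the exact test allows was 0.00216 for these group sizes. The median share of reads past the canonical end over the 75 other miRNAs was highest in CD20 replicate 2 (21.4%), CD20 replicate 1 (20.5%) and PD12 replicate 1 (20.1%), which are also 3 of the 4 libraries with the highest miR-451 tail share. It ran from 14.7 to 21.4% over all libraries. As a median over 75 miRNAs, its span cannot be set against that of 1 miRNA, and its part in the tail share was not tested.

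**Figure D2:**
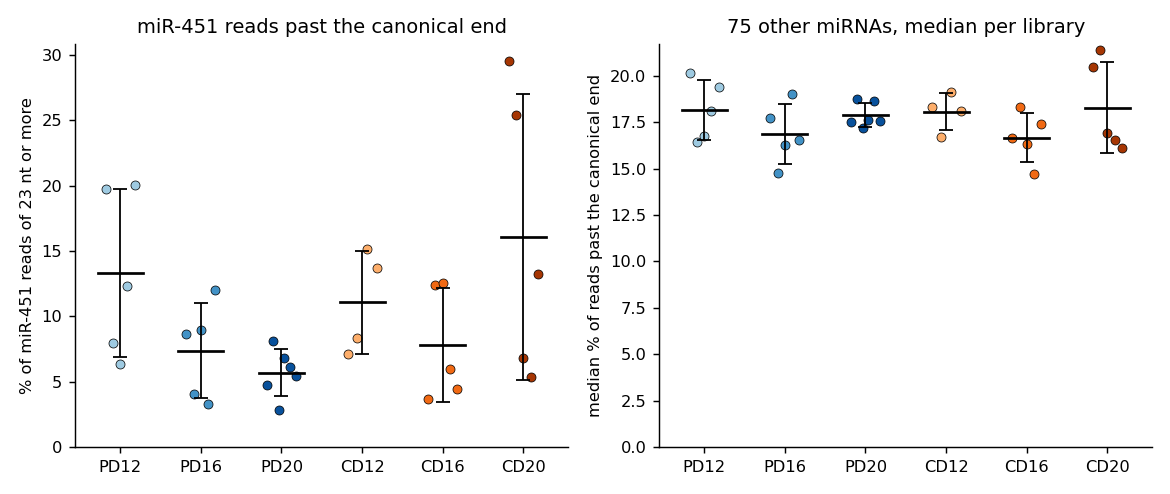
Left, share of miR-451 reads of 23 nt or more (%) in each library by group. Right, the median over 75 other miRNAs of the share of reads past the canonical end (%), on its own axis from 0. Points are animals, thick lines group means and error bars SD, and CD20 holds the 2 highest libraries in both panels.

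Levels are CPM of the reads on the annotated list, scaled by TMM and called normalized reads. A small RNA read covers a whole miRNA, so no correction for length was made. Adapters were ligated to both ends, and how evenly different sequences and ends were captured was not tested. Levels of different forms set side by side are thus shares of reads and not of molecules. In these bulk samples more red cells and more miRNA per cell cannot be told apart. The 21 nt form of miR-451 ranked 73 on the list by reads and was the most abundant member by far. Its level was 321, 774, 621, 423 and 701 in the PD12 animals. In PD16 it was 1024, 1974, 188, 564 and 341. In PD20 the lowest, median and highest levels were 431, 1299.7 and 2453. Pregnant animals of 1 day thus differed among themselves as much as the days did, and all PD12 values lay within the range of PD16. In cyclic gilts the level was 732, 705, 265 and 323 in CD12. It was 2051, 386, 578, 838 and 431 in CD16. In CD20 it was 688, 326, 493, 1027 and 153. A single CD16 animal stood above all other cyclic animals, and the range of CD12 lay within that of CD20.

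By mean level the order was PD20 (1334 ± 754 SD), CD16 (857 ± 691), PD16 (818 ± 719), PD12 (568 ± 191), CD20 (538 ± 338) and CD12 (506 ± 246). Each neighbouring pair in this order differed by less than the larger SD of the pair. Over all 30 animals the 21 nt form ranged 16.0-fold. The SD of its log2 level within groups was 0.864, against a median of 0.554 for 59 sequences of like level (from 0.5 to 2 times its mean) and 0.624 for the whole list, and 89.8% of the 59 were less variable.

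miR-144-5p, from the hairpin next to that of miR-451, was led by its 23 nt form. Its levels were 35.0, 77.3, 164, 31.5 and 103 in PD12 and 37.5, 236, 22.7, 94.2 and 68.0 in PD16. In PD20 they ran from 63.3 to 202 with a median of 101. The animal highest for 21 nt miR-451 was also the highest for this form in PD16, PD20, CD16 and CD20 but not in PD12 or CD12, and the lowest animal was the same in PD16 and PD20 alone. In cyclic gilts the levels were 21.4, 75.1, 36.3 and 25.1 in CD12, and 114, 58.8, 46.2, 48.2 and 56.6 in CD16. In CD20 they were 42.0, 31.02, 18.2, 69.6 and 23.8. PD20 had the highest and CD20 the lowest mean (113 ± 51.3, n = 6, and 36.9 ± 20.3, n = 5), and their ranges met between 63.3 and 69.6, where CD20 replicate 4 exceeded the lowest PD20 animal. The other order was PD16 (91.8 ± 85.4), PD12 (82.1 ± 54.6), CD16 (64.7 ± 27.9) and CD12 (39.5 ± 24.6), with neighbours closer than the larger of their SDs. Over all reads of the arms, miR-144-5p amounted to between 5.70 and 19.8% of miR-451 (median 11.9%) in a library.

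miR-144-3p, the partner strand, was rare and erratic. The 19 nt form was counted 765 times in all, and no read was found in PD16 replicate 4 and CD20 replicate 5. Its level in PD16 was 27.3, 1.77, 1.55, 0 and 0.476, and in PD20 it ran from 1.18 to 18.1 with a median of 2.64. In each of these groups 1 animal was far above the rest. In PD12 it was 19.4, 15.5, 4.62, 11.2 and 31.1. In CD12 it was 18.6, 12.8, 0.957 and 16.1, in CD16 2.15, 12.2, 10.9, 19.01 and 1.595, and in CD20 28.4, 9.87, 6.05, 2.78 and 0. With an SD of 1.31 on the log2 scale within groups, it was the eighth most variable sequence on the list and more variable than 99.4% of 330 sequences of like level. By mean the order was PD12 (16.4 ± 9.90), CD12 (12.1 ± 7.81), CD20 (9.42 ± 11.2), CD16 (9.16 ± 7.34), PD16 (6.22 ± 11.8) and PD20 (4.91 ± 6.54), with neighbours closer than the larger of their SDs. All reads of the 3p arm came to between 0 and 34.3% of those of the 5p arm, with a median of 7.81%.

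The canonical 22 nt form of miR-486 was rarer still than miR-144-5p, at between 1.03 and 24.5. In PD12 it was 12.2, 24.1, 3.695, 6.44 and 8.34, and in PD16 12.9, 4.13, 1.03, 5.21 and 5.71. In PD20 it ran from 2.49 to 24.5 with a median of 5.64. In CD12 it was 6.03, 3.07, 1.43 and 1.24, in CD16 4.30, 8.87, 8.96, 20.4 and 7.58, and in CD20 6.44, 4.94, 5.59, 6.68 and 3.33. CD12 held the lowest mean (2.94 ± 2.21), below CD20 (5.39 ± 1.35), PD16 (5.80 ± 4.36), CD16 (10.02 ± 6.10), PD20 (10.1 ± 9.24) and PD12 (10.9 ± 7.95). Of these neighbours CD12 and CD20 were apart by more than the SD of either group, with a log2FC of 0.87 ± 0.56 (SE). The adjusted p was 0.124 in the joint edgeR test of CD16 and CD20 against CD12, and 0.450 in the single edgeR contrast of CD20 vs CD12. All miR-486 reads, in CPM of all deposited reads, also had their lowest mean in CD12. They were 41.2, 36.5, 42.4 and 14.5 in CD12. They were 85.9, 129, 73.7, 179.8 and 102 in CD16. The ranges of these 2 groups did not meet. Among single listed sequences, a different measure from this sum, that held for 5.50% in the same comparison. The log2FC of 1.599 ± 0.40 (SE) was not called (adjusted p = 0.0730 in the joint edgeR test of CD16 and CD20 against CD12). Each of the other 4 groups held at least 1 animal within the range of CD12. Values were 194, 270.4, 31.5, 70.6 and 114 in PD12 and 140.3, 60.6, 29.1, 55.5 and 130.1 in PD16. In PD20 the lowest, median and highest were 36.9, 62.1 and 262. In CD20 they were 86.3, 50.4, 59.9, 61.2 and 33.8. The share of miR-486 relative to miR-451, over all reads, ran from 2.47 to 28.7%, so the 2 loci did not keep a fixed ratio.

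**Figure D3:**
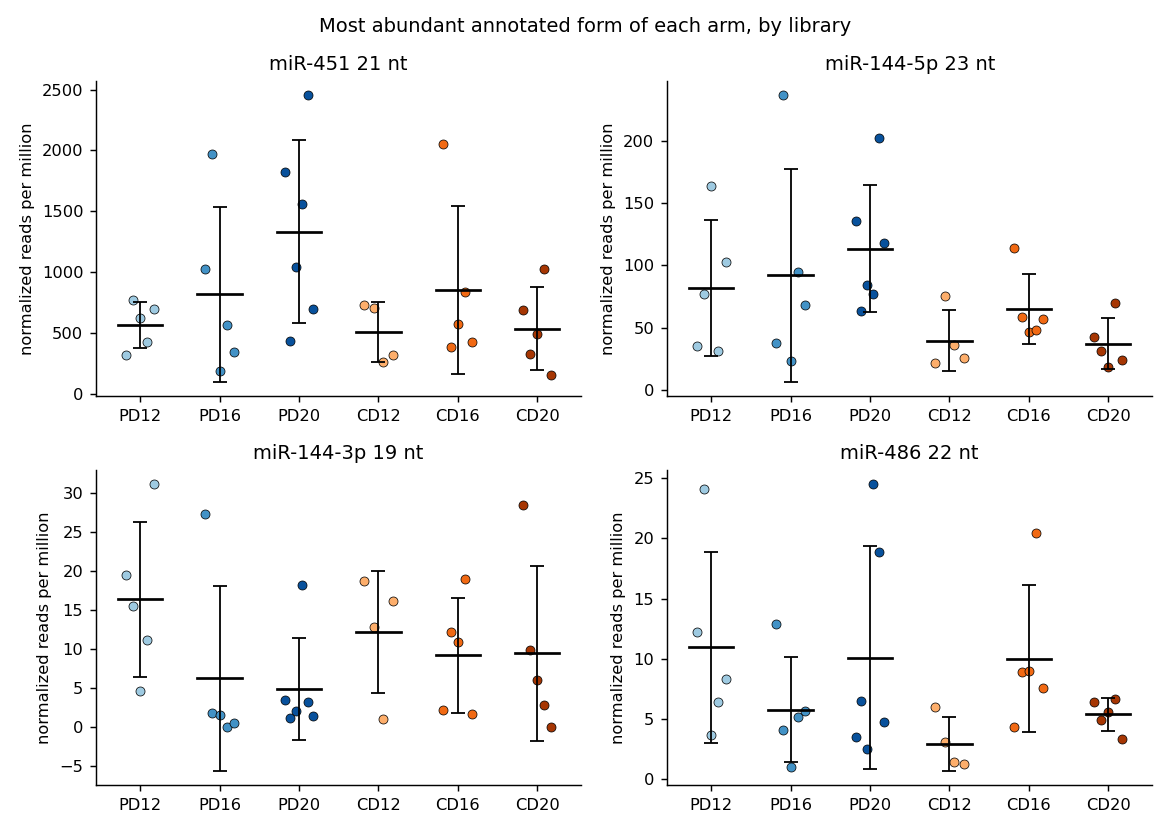
Normalized reads (CPM) of the most abundant annotated form of miR-451, miR-144-5p, miR-144-3p and miR-486 in each animal, by group. Points are animals, thick lines group means and error bars SD, which passes below 0 where it exceeds the mean. PD20 is spread over most of the range of miR-451, and 1 animal each stands far above the rest for miR-144-3p in PD16 and PD20.

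Each comparison was tested on the counts of all sequences on the list by the quasi-likelihood test in edgeR. To be called, a form had to reach an adjusted p (Benjamini-Hochberg) below 0.05 with a log2FC beyond 1 in either direction. The comparisons within pregnancy share animals with each other, as do those within the cycle, and each group also enters a comparison of P with C. Of the 16 forms, 0 were called in any of these 9 comparisons. The count at an unadjusted p under 0.05 and those of the likelihood ratio test of edgeR and of DESeq2 are given for each.

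Within pregnancy, PD16 vs PD12 had 0 of 16 forms called, against 0.229% of all sequences, and PD20 vs PD12 had 0 of 16 against 0.802%. The joint edgeR test of both days gave 1 of 16 at an unadjusted p under 0.05, against 18.7% of all, and this was 19 nt miR-451. The 21 nt form had a log2FC of 0.62 ± 0.55 (SE) for PD16 and 1.26 ± 0.54 for PD20 vs PD12 (adjusted p = 0.321 for both, edgeR). miR-144-3p had -1.18 ± 0.95 and -1.66 ± 0.91 (adjusted p = 0.437, edgeR). When PD16 replicate 1, the 1 high animal, was left out, miR-144-3p was called at -4.11 for PD16 vs PD12 and -1.66 for PD20 vs PD12. Both share the adjusted p of 0.0363 of the joint edgeR test, and 1.26% and 2.06% of all sequences were called in these fits. The value for PD20 vs PD12 was -1.66 with all animals too, where its single edgeR contrast gave an adjusted p of 0.315. In both comparisons 0 of 16 were called by the likelihood ratio test (2.75% and 5.27% of all) and by DESeq2 (1.03% and 6.30%). No form had groups that did not overlap, against 1.83% of all sequences for PD16 and 3.32% for PD20. The median log2FC of the 16 was -0.43 and -0.07, and that of all sequences 0.05 and -0.01.

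PD20 vs PD16 had 0 of 16 called against 0.573% of all, and 1 form, again 19 nt miR-451 (log2FC 1.27 ± 0.52), had an unadjusted p under 0.05 against 14.2%. Of the 16 fitted values 15 were positive, with a median of 0.42 against -0.06 for all sequences. Neither the likelihood ratio test (2.41% of all) nor DESeq2 (1.72%) called any, with 0 of 16 in each, and 0 of 16 had groups that did not overlap, against 1.72%. The signs were thus nearly uniform, but 9 of the 16 forms are lengths of miR-451 and not separate observations. None of the sizes passed the test.

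Within the cycle, CD16 vs CD12 had 0 of 16 called against 0.115% of all, and CD20 vs CD12 had 0 of 16 against 0.458%. At an unadjusted p under 0.05 the joint edgeR test held 4 of 16, against 23.9% of all. They were both forms of miR-486 and the 19 and 24 nt forms of miR-451. For CD16 vs CD12 the log2FC was 2.10 ± 0.60 for 21 nt miR-486 and 1.80 ± 0.55 for the canonical form (adjusted p = 0.121 and 0.124, edgeR), the largest among the members. The 21 nt form was counted at 5.92, 5.92, 8.49, 14.4 and 5.18 in CD16 and at 2.19, 3.07, 0.478 and 1.65 in CD12, and it was the 1 of 16 whose groups did not overlap, against 5.50% of all sequences. The likelihood ratio test called 3 of 16 in CD16 vs CD12, which were both miR-486 forms and 19 nt miR-451 (5.27% of all), and DESeq2 called 1, 21 nt miR-486 (1.95%). In CD20 vs CD12 both called 0 of 16 (5.73% and 1.95% of all), and 0 of 16 had groups apart (4.47%).

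CD20 vs CD16 had 0 of 16 called against 0.458% of all, and 2 of 16 had an unadjusted p under 0.05 against 21.2%. The 19 nt form of miR-451 had the lowest adjusted p of the members (log2FC -1.79 ± 0.52, adjusted p = 0.0957, edgeR). It was read at 75.3, 24.4, 63.2, 49.6 and 43.9 in CD16 and at 20.1, 12.3, 18.2, 22.8 and 7.14 in CD20, so that the groups did not overlap, which held for this 1 of the 16 and for 4.93% of all sequences. It was also the 1 form called by the likelihood ratio test (6.41% of all) and by DESeq2 (8.59%). With CD20 replicate 4 left out edgeR called the 20 nt form instead, at -2.39, against 2.18% of all. miR-451 forms of 19 to 21 nt had negative fitted values here, 3 of 3, and forms of 22 to 26 nt positive ones, 5 of 5. For 3 of these 5, those of 23 to 25 nt, the median level was nevertheless lower in CD20 than in CD16 (42.3 and 51.4 for the 23 nt form).

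Between P and C on D12, 0 of 16 forms were called against 0% of all sequences, and 2 of 16 had an unadjusted p under 0.05 against 6.08%. Both were forms of miR-486, with a log2FC of 2.03 ± 0.62 and 1.90 ± 0.64 (adjusted p = 0.677, edgeR). All 16 fitted values, 9 of them for lengths of miR-451, were positive, from 0.05 to 2.03, with a median of 0.65 against 0.04 for all. The likelihood ratio test called 0 of 16 (0.115% of all) and DESeq2 0 (0%), and 0 had groups apart (2.18%). On D16, 0 of 16 were called against 0%, and 1 of 16, 21 nt miR-486, had an unadjusted p under 0.05 against 10.9%. The likelihood ratio test (0.573%) and DESeq2 (0.803%) called 0 of 16, and 0 had groups apart (1.72%). Without PD16 replicate 1, miR-144-3p was called on D16 at a log2FC of -3.30 (adjusted p = 0.0413, edgeR), with 4.13% of all.

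On D20 the members came nearest to the threshold. In PD20 vs CD20, 0 of 16 were called against 1.49% of all, and 6 of 16 had an unadjusted p under 0.05 against 28.5%. These were the 19, 20 and 21 nt forms of miR-451 and the 20, 22 and 23 nt forms of miR-144-5p, all higher in PD20. The 19 nt form of miR-451 had a log2FC of 2.11 ± 0.53, and the 20 and 23 nt forms of miR-144-5p 1.66 ± 0.43 and 1.65 ± 0.43, each with an adjusted p of 0.0519 in edgeR. The 20 nt form of miR-144-5p was read at 2.65, 2.12, 0.931, 1.67 and 0.952 in CD20 and from 3.55 to 7.48 in PD20. These levels rest on few reads, 7, 6, 2, 3 and 2 in CD20 and from 9 to 18 in PD20. Its groups did not overlap, which held for this 1 of the 16 and for 4.81% of all sequences. The likelihood ratio test called 5 of 16, all of these but 21 nt miR-451, and so did DESeq2, while they called 14.2% and 15% of all sequences. Leaving out PD20 replicate 4 or CD20 replicate 4 gave 5 of 16 in edgeR, against 13.3% and 11.9% of all sequences. Leaving out PD20 replicate 2 or CD20 replicate 5 gave 1, the 19 nt form, against 1.37% and 6.76%. More of all sequences were thus also called in the fits that called 5 members than in those that called 1.

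The fitted differences between PD20 and CD20 were positive for the forms of miR-451 with 19 to 21 nt and negative for the other 6, and a course by length was not tested. They were 2.11 at 19 nt, 1.92 at 20 nt and 1.34 at 21 nt, then -0.21 at the canonical 22 nt, -0.54 at 23 nt, -1.24 at 24 nt, -1.21 at 25 nt and -0.56 at 26 nt. The 17 nt form was at -0.15. None of these values passed the test, and the forms of 22 to 26 nt had adjusted p-values from 0.207 to 0.810 in edgeR. Their negative values rest on the means: for each of the 5 forms the median was higher in PD20 than in CD20, for example 148.7 and 118 at 22 nt and 5.74 and 4.19 at 24 nt. The 26 nt form was 169.7 and 57.1 in CD20 replicates 1 and 2 and between 12.1 and 30.6 in the other 3, against 16.0 to 74.3 in PD20.

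**Figure D4:**
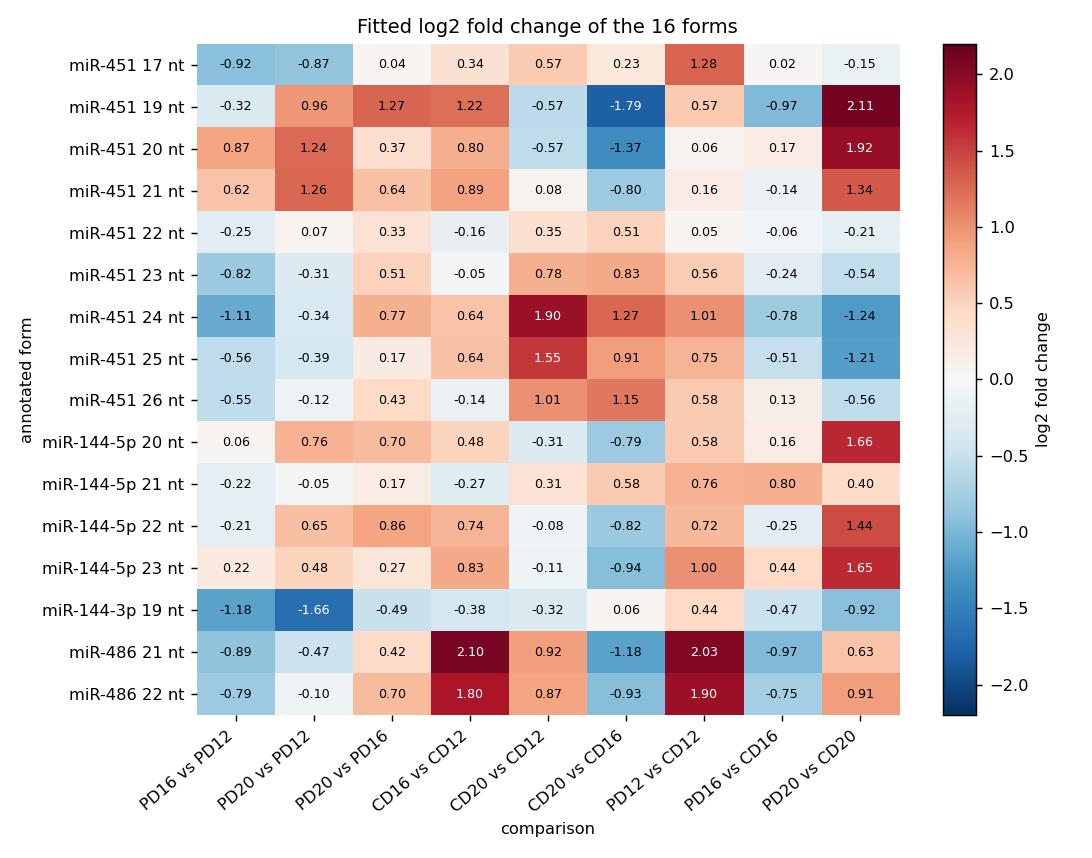
Fitted log2FC of the 16 annotated forms (rows, by arm and length) in the 9 comparisons (columns), with the value in each cell. Red is higher and blue lower in the first group named, and in PD20 vs CD20 the miR-451 forms run from 2.11 at 19 nt to -1.24 at 24 nt, none of them called.

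Whether the difference between P and C itself departed between days was tested in 1 fit of all 6 groups. For D16 against D12, 0 of 16 forms were called (0% of all), with 2 of 16 at an unadjusted p under 0.05 in edgeR against 8.13%. For D20 against D12, 0 of 16 were called (0.115% of all), again with 2 at an unadjusted p under 0.05, against 16.4%. For D20 against D16, 1 of 16 was called against 2.41% of all. At an unadjusted p under 0.05 there were 2 of 16, against 19.1%. The form called was 19 nt miR-451, for which the log2 difference of P minus C was 2.97 ± 0.75 higher on D20 than on D16 (adjusted p = 0.0440, edgeR). In mean level, CD16 lay above PD16 (51.3 ± 19.4 and 27.5 ± 19.9, n = 5 each) and PD20 above CD20 (67.6 ± 46.4, n = 6, and 16.1 ± 6.32, n = 5). The call was lost in 15 of 30 fits that left out 1 library, where the adjusted p ran from 0.0274 to 0.101 and the difference from 2.66 to 3.47.

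Levels around the group means were compared across the 30 animals, with 100000 permutations within groups and adjustment over 6 pairs. The 21 nt form of miR-451 and the 23 nt form of miR-144-5p went together (Pearson r = 0.64, permutation p = 0.00069, adjusted p = 0.00414, and Spearman rho = 0.54, permutation p = 0.00564, adjusted p = 0.0338). Without PD16 replicates 2 and 3, the farthest from the median of miR-451, r was 0.50 with a permutation p = 0.00966 and an adjusted p = 0.0580, so the relation was weaker and did not pass the threshold. With miR-486 the canonical form gave r = 0.37 for miR-451 (rho = 0.37, permutation p = 0.0697, adjusted p = 0.117, and 0.0638 and 0.128 for rho). For 23 nt miR-144-5p and canonical miR-486 r was -0.02 and rho -0.02 (permutation p = 0.938 and 0.918, which are also the adjusted values). The canonical form had 611 reads in all, 6.94% of the miR-486 reads, and correlations over all miR-486 reads were not tested. Of the 3 pairs among these leading annotated forms, that of the neighbouring hairpins was the 1 that passed the threshold over all animals with this scaling. With library size from all deposited reads, miR-451 with miR-486 also passed by Pearson r (0.44, permutation test, adjusted p = 0.0456). It did not pass by rho (0.41, permutation test, adjusted p = 0.0747).

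miR-16, abundant in red cells but made in most tissues, gave r = 0.14 with miR-451 (rho = 0.14, permutation p = 0.543 and 0.501, adjusted p = 0.651 and 0.602). miR-142, a miRNA of leukocytes, gave r = 0.53 (permutation p = 0.00865, adjusted p = 0.0259) and rho = 0.50 (permutation p = 0.0188, adjusted p = 0.0565). Without the same 2 libraries r was 0.45, with a permutation p = 0.0358 and an adjusted p = 0.0715. miR-126, a miRNA of endothelium, gave r = 0.33 and rho = 0.28 (permutation p = 0.0781 and 0.150, adjusted p = 0.117 and 0.224). Without those 2 libraries its r rose to 0.44, with a permutation p = 0.0336 and an adjusted p = 0.0715, near the values of miR-142. Leaving out PD20 replicate 3 and CD16 replicate 3, in which reads with C in place of the last T were nearly absent, left r at 0.64 for miR-144-5p and 0.53 for miR-142.

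**Figure D5:**
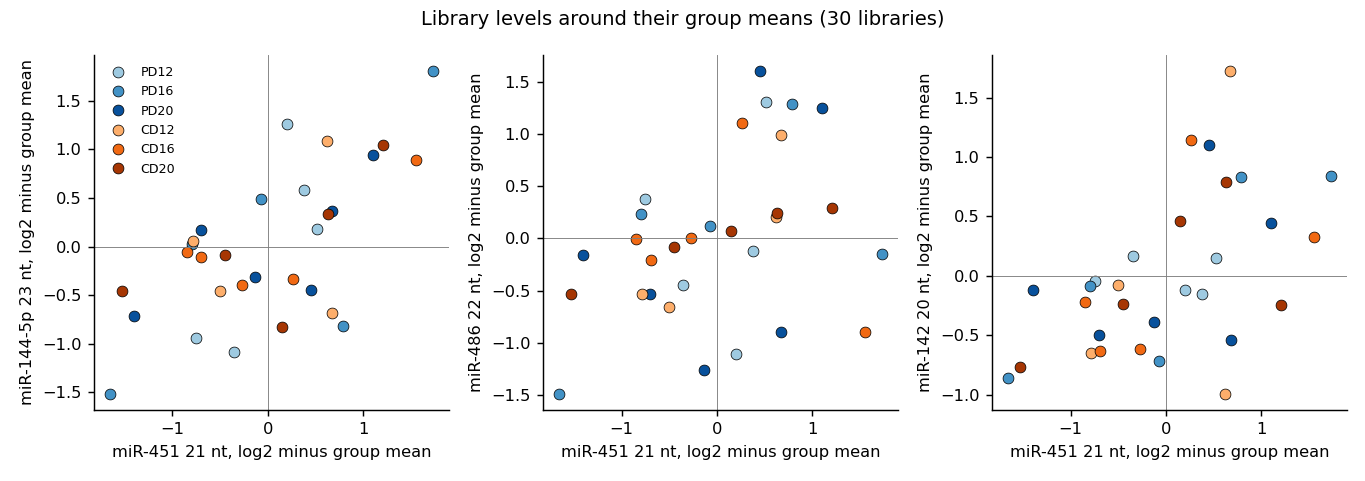
log2 level of 23 nt miR-144-5p, canonical miR-486 and 20 nt miR-142 (y axes) against that of 21 nt miR-451 (x axes), each minus its group mean, for 30 animals coloured by group. Points rise together for miR-144-5p (r = 0.64) and miR-142 (r = 0.53) and are more scattered for miR-486 (r = 0.37).

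By likeness of log2 level to 21 nt miR-451 over the 30 libraries, not centred on groups, some members came first and others did not. The 22 nt form of miR-144-5p had r = 0.86 and the 20 and 19 nt forms of miR-451 0.86 and 0.85, and 0 of 857 other sequences lay above any of these. The long forms of miR-451 were less alike, with 0.19 at 24 nt, 0.29 at 25 nt and 0.40 at 26 nt, and 165 of the 857 were more alike than the 24 nt form. The 17 nt form had r = 0.43, with 15 of the 857 above it, and both forms of miR-486 had r = 0.40, with 19 above each. miR-144-3p was the least alike member (r = 0.16), with 190 above it. The 5 other sequences with the highest r were a 20 nt form of miR-9 (0.65), a 20 nt isomiR of let-7f (0.62), a 23 nt sequence named by the Ensembl gene ENSSSCG00000026963 (0.61), a 20 nt isomiR of miR-27b (0.57) and the 20 nt form of miR-142 (0.55). All 857 had a median r of -0.02. The libraries share their depth and group in this measure, so r is given without a test.

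Lists of miRNAs typical of other cells were summed to see what else the samples held. Of the leukocyte list (mir-142, mir-150 and mir-155, with mir-223 at 0 sequences) 0 of 9 sequences were called in any comparison, and the most abundant was the 20 nt form of miR-142. Their summed level had a median of 113 in PD20 and 105 in CD20 but 44.7 in CD16, 52.7 in PD12, 54.1 in CD12 and 74.2 in PD16, and it was highest in CD20 replicate 1 (206), the animal with the highest tail share. In CD20 vs CD16 their median log2FC was 1.49, and in PD20 vs CD20 it was -0.21. Of the muscle list, mir-1 and mir-206 gave 6 sequences while mir-133a and mir-133b gave 0, and 0 of 6 were called in any comparison. Their sum, nearly all from miR-1, was 40166, 4511, 8085, 1397, 3165 and 2452 in PD20 and 2117, 1304, 1082, 8749.6 and 2039 in CD20, with a median log2FC of 1.92 in PD20 vs CD20. PD20 replicate 1 held by far the most miR-1. Its part in the miR-451 and miR-486 levels was not tested.

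The endothelial list (17 sequences of miR-126) had summed levels of 4604 ± 293 in CD20 (n = 5) and 3913 ± 606 in PD20 (n = 6), and of 2602 ± 778 in CD12 (n = 4), and 0 of 17 were called. The epithelial list (31 sequences of the miR-200 family, led by miR-200c) ran from 7678 ± 2231 in CD20 to 12763 ± 3475 in CD16, and 0 of 31 were called. The red cell-abundant but broadly made miRNAs (24 sequences of mir-16, mir-15b, mir-92a, mir-25, mir-363, mir-93 and mir-185, led by miR-25) also had 0 of 24 called. Their sum was 2134 ± 302 in PD20 and 2391 ± 432 in CD20. It was 2024 ± 327 in PD12, 2408 ± 649 in PD16, 1689 ± 447 in CD12 and 2134 ± 555 in CD16, and the summed miR-451 forms were 1957 ± 1088 in PD20 and 982 ± 578 in CD20.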

How the data were processed

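Small RNA of 30 endometria (16 pregnant and 14 cyclic gilts) was sequenced, 1 library per animal. Per the methods, the authors dropped reads with a base of low quality, removed adapters, discarded reads under 17 nt or with unknown bases, and deposited raw counts of reads per distinct sequence, without alignment or normalization. The study annotated reads on Sscrofa10.2, and no coordinates are given here. PCR copies were not told apart, so reads are not independent molecules.

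Members were found by name in the study's list of annotated sequences and counted by exact match. Library size was the reads on that list, scaled by TMM (edgeR 4.0.16, R 4.3.3, prior count 0.125). Days were compared within a status, D16 and D20 jointly against D12, and P with C in a fit for each day. The SE is the size of the log2FC divided by the root of F. The tail share used exact permutation of logits, and correlations used log2(CPM + 1). Alternatives included DESeq2 1.42.0. Fits were tested on simulated data. Members, lists and tests were chosen with earlier results of these data known. Named sequences are the members, the leading form of miR-16, miR-142, miR-126 and each list, list sequences with a call, and the 5 sequences most like miR-451.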

Additional observations from a re-analysis of the deposited data

Results flagged for a closer look

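Among 30 sets of 4 to 6 animals (4 leading forms and the tail share in 6 groups), 5 held an animal whose gap to the rest exceeded the 95% limit of Dixon's test. By chance about 1 in 20 sets passes this limit if values are normal and sets independent. The levels were not log-transformed and CD16 replicate 1 was flagged for both miR-451 and miR-144-5p, so the 5 cannot be set against that rate. CD16 replicate 1 had 2051 normalized reads of 21 nt miR-451, with the next animal at 838, and 114 of 23 nt miR-144-5p, with the next at 58.8. miR-144-3p was 27.3 in PD16 replicate 1 and 18.1 in PD20 replicate 4, with the next animals at 1.77 and 3.49. The canonical form of miR-486 was 20.4 in CD16 replicate 4, with the next at 8.96.

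For 19 nt miR-451 the difference between P and C was 2.97 (log2) higher on D20 than on D16 by the edgeR test of that difference, with an adjusted p of 0.0440. Outside the annotated sequences, the 23 nt read of miR-486 that ends in A made up 65.7% of the reads of that locus.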

How the results depend on the processing

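Counts of forms called changed with the tool. The likelihood ratio test of edgeR called 3 in CD16 vs CD12, 1 in CD20 vs CD16 and 5 in PD20 vs CD20, DESeq2 called 1, 1 and 5, and 1 fit of all libraries called 3 in PD20 vs CD20, where it called 11.2% of all sequences. With 1 library left out the counts ran from 0 to 1 in PD16 vs PD12, PD20 vs PD12, PD16 vs CD16, CD20 vs CD16 and the test of P minus C between D20 and D16, and from 0 to 5 in PD20 vs CD20. PD16 replicate 1 made the first 3 of these changes. The cause of these changes with the tool was not tested. A test on all sequences with at least 10 reads called 0 forms.

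Of 588 alternative log2FC values for the 4 leading forms, 552 kept direction and call and 31 reversed. With library size from all deposited reads, CD20 vs CD12 became 0.30 for 23 nt miR-144-5p and 0.23 for miR-144-3p. Leaving out 1 library gave, for 21 nt miR-451, -0.0073 to 0.82 in PD16 vs PD12, -0.32 to 0.34 in CD20 vs CD12, -0.059 to 0.38 in PD12 vs CD12 and -0.69 to 0.55 in PD16 vs CD16. For 23 nt miR-144-5p it gave -0.53 to 0.67 in PD16 vs PD12, -0.48 to 0.39 in CD20 vs CD12 and -0.22 to 0.80 in PD16 vs CD16. For miR-144-3p it gave -1.46 to 2.45 in PD20 vs PD16, -0.91 to 0.49 in CD20 vs CD16 and -2.04 to 0.080 in PD20 vs CD20, and for canonical miR-486 -0.60 to 0.39 in PD20 vs PD12.

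Replicate numbers did not pair the animals, since deviations of same-numbered libraries correlated between -0.62 and 0.63 and every comparison held pairs under 0.1. With the replicate block 0 forms were called in all 9 comparisons, and miR-144-3p reversed to 0.47 in PD20 vs PD16, 0.43 in CD16 vs CD12 and -0.57 in CD20 vs CD16.

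The tail share in PD16 vs CD16 became 0.020 on the logit scale from 24 nt on, and -0.21 to 0.14 with 1 library left out. With all deposited reads as library size r was 0.44 for miR-451 with miR-486 (past the threshold, unlike rho) and 0.048 for miR-144-5p with miR-486. Without centring, the latter was 0.19 and miR-451 with miR-16 -0.046. Without the 2 farthest libraries r fell short of the threshold for miR-451 with miR-144-5p (0.50) and miR-142 (0.45). Arm sums over all reads, of which 0 were called, and the correlations without PD20 replicate 3 and CD16 replicate 3 were added after seeing the data. Counts of miR-144-3p, of the annotated forms of miR-486 and of 20 nt miR-144-5p were low, which limits their precision.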
